A study of Mus musculus with 9 samples.

Results

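The 44 genes described here encode the centromere, the kinetochore and the spindle checkpoint of mouse cells. They were chosen by name, as the rows of the deposited expression values whose Ensembl identifier belongs to 1 of 44 listed symbols, and all 44 were found among 54307 genes. The choice was made with earlier results of these data known, so the counts below describe the list and do not test it. RNA came from C2C12 cells, a mouse myoblast line that divides in culture and can fuse into myotubes. For 48 h, the HL group received 200 nmol/L liraglutide on top of 25 mmol/L glucose, the H group received 25 mmol/L glucose, and the NC group was the control, with 3 libraries in each group. Liraglutide is a drug modelled on the gut hormone GLP-1, whose receptor it activates. The glucose concentration of the NC group is not given in the sources used here, and no mannitol library was analysed here. The comparison of H with NC asks what high glucose changed in the myoblasts, the comparison of HL with H asks what liraglutide changed in high glucose, and HL with NC shows where the treated cells stood relative to the control.

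The kinetochore is the protein structure that links a chromosome to the microtubules of the spindle. It is built on nucleosomes that hold CENP-A, a variant of histone H3 that marks the centromere, through an inner layer of CENP proteins and an outer layer, the KMN network, which binds microtubules. Kinetochores without attached microtubules send a checkpoint signal that delays anaphase, and the chromosomal passenger complex releases wrong attachments. Many of these genes are known to be transcribed mainly in cells that approach mitosis. In bulk RNA, fewer cells of a kind and less RNA per cell cannot be told apart.

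Values are FPKM, that is, fragments scaled to gene length and to the mapped reads of the library, and fold changes are differences of log2(FPKM + 0.1) with the standard error (SE) of the fit. A gene was called higher or lower when its adjusted p was under 0.05 and its absolute log2 fold change was over 1. The libraries summed to 698627 to 731929 FPKM in HL, 649733 to 683362 in H and 757000 to 765681 in NC. Depth, estimated within a preset window from the most frequent value of 1 read, was 15.7 to 19.7 M reads in HL, 17.2 to 20.7 in H and 18.8 in NC. The mitochondrial share of the FPKM was 9.19 to 11.4% in HL, 7.24 to 9.47% in H and 6.48 to 7.28% in NC. The summed level of 12 myoblast markers was 749 to 777 FPKM in HL, 413 to 568 in H and 532 to 547 in NC. Only Pax7 was under 1 FPKM in every library. Des was the most abundant, with a mean of 369 FPKM in HL, 191 in H and 253 in NC. Of the 11 tested, 3 were called higher and 1, Cdh2, lower in HL than in H, against 3.55% and 5.83% of all tested genes. The summed level of 15 markers of differentiated muscle was 62.1 to 67.4 FPKM in HL, 24.0 to 32.1 in H and 30.003 to 35.5 in NC. Of the 15, 5 were under 1 FPKM in every library. Of the 7 that were tested, 6 were higher in HL than in H, against 3.55% of all tested genes. In HL against NC 5 of the 7 were higher, against 6.30% of all tested genes. The summed level of 10 adipocyte and mesenchymal progenitor markers was 457 to 503 FPKM in HL, 628 to 719 in H and 749 to 770.0 in NC. Of the 10, 6 were under 1 FPKM in every library, Lep among them at 0. Ly6a made up most of the sum, with a mean of 397 FPKM in HL, 519 in H and 680 in NC. Cd34 went the other way in H against NC and was called higher, at 132 FPKM in H and 56.4 in NC. The summed level of 10 endothelial markers was 1.47 to 1.72 FPKM in HL, 2.23 to 5.38 in H and 0.589 to 0.961 in NC. The summed level of 15 macrophage markers was 52.1 to 53.7 FPKM in HL, 174 to 253 in H and 33.8 to 36.2 in NC. Of the 15, 11 were under 1 FPKM in every library, Tyrobp among them at 0. Csf1r had a mean of 0.262 FPKM in HL, 125 in H and 0.451 in NC. Cd14 had 30.6 in HL, 70.6 in H and 27.6 in NC, and Cd68 had 19.0, 17.6 and 4.78. The part of these shifts in the results below was not tested.

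Compared with the NC group, 35 of the 44 genes fell in the H group, a share to be read against the 5.75% of all 13674 tested genes that were lower. None of the 44 was called higher (0 genes, against 10.3% of all tested genes called higher). At an unadjusted p under 0.05, 0 were higher too, and the share of all tested genes at that threshold was not computed. After rescaling to TPM, Zw10 and Zwint had adjusted p under 0.05 and positive differences of 0.44 and 0.14, both under the fold threshold. The median log2 fold change of the 44 genes was -1.88, against -0.04 over all tested genes. Compared with the H group, 25 of the 44 genes rose in the HL group, where 3.55% of all tested genes were higher. In that comparison 0 of the 44 genes were called lower and 1, Zw10, was lower at an unadjusted p under 0.05, against 5.83% of all tested genes called lower. Without the fold threshold, 39 of the 44 genes were higher and 1 was lower in HL than in H, where 26.7% and 21.7% of all tested genes were. The median log2 fold change of HL over H was 1.12, against 0.04 over all tested genes.

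Between HL and NC, 6 of the 44 genes were called lower in HL, against 2.41% of all tested genes, and 0 were called higher, against 6.30%. The 6 lower genes were Cenpk, Cenpm, Spc24, Nsl1, Ska1 and Mad2l1. At an unadjusted p under 0.05, 0 were higher in HL than in NC, and the share of all tested genes was not computed there either. The median log2 fold change of HL over NC was -0.63, against -0.04 over all tested genes. Without the fold threshold, 38 of the 44 genes had an adjusted p under 0.05 and a lower level in HL than in NC, where 27.2% of all tested genes did. The 44 genes together summed to 1183 ± 10.4 FPKM in HL, 659 ± 35.6 in H and 1733 ± 11.4 in NC (SD, n = 3 each). Every HL library lay above every H library in 39 of the 44 genes (30.4% of all tested genes), and every HL library lay below every NC library in 42 (36.3% of all tested genes). Every H library lay below every NC library in 42 genes (35.7% of all tested genes). In 38 genes the 9 libraries fell in 3 separate ranges, with H lowest, HL between and NC highest. How many of all tested genes lay in this order was not computed. The 6 genes outside this order were Cenpl, Cenpt, Zwint, Nsl1, Zw10 and Mad1l1.

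**Figure D1:**
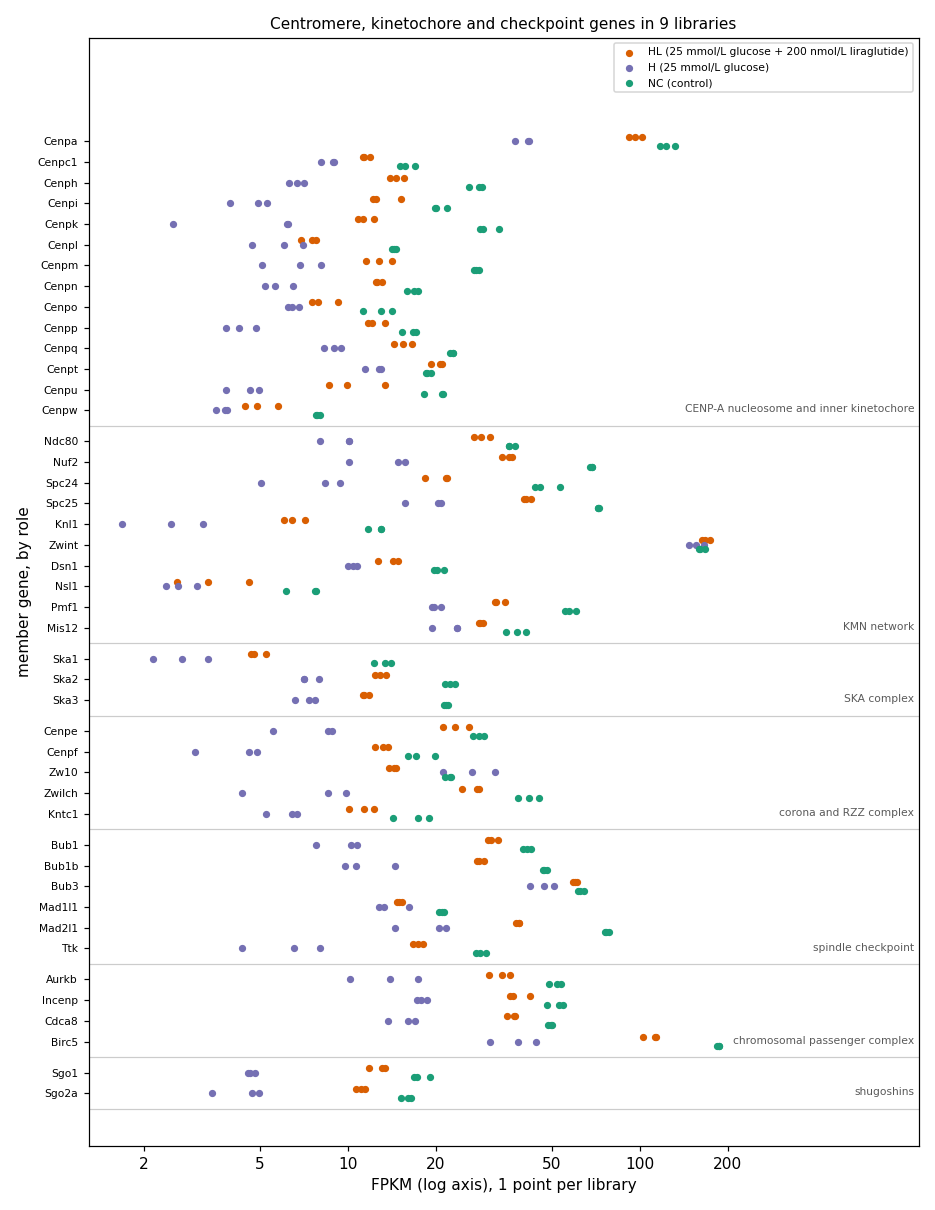
FPKM of each of the 44 genes on a log axis, grouped by role, with 1 point for each of the 3 HL (orange), 3 H (purple) and 3 NC (green) libraries. In 38 genes the H points lie left of the HL points and the HL points left of the NC points. The share of all tested genes in this order was not computed. The 9 points of Zwint, the most abundant gene here by the mean of all libraries, lie between 147 and 174 FPKM.

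Promoter sequences are shown because 35 of the genes fell together in H. Genes of late cell cycle phases in mouse and human cells are known for promoters with a cell cycle homology region (CHR), to which MuvB complexes bind, and with CCAAT boxes, which NF-Y binds. RefSeq promoters of 300 bases, 250 before and 50 after the start of the gene on GRCm38.p6, were at hand for 38 of the 44 genes, with 43 promoters in all. TTTGAA, the core of the CHR, was in 17 of the 43 (39.5%), against 17.9% of 32851 promoters in the whole collection. CCAAT was in 30 of the 43 (69.8%), against 37.4%. E2F-type letters were in 11 of the 43 (25.6%), against 8.07%. The E2F-type forms searched were GCGGGAA first, GCGCGAA next and GCGCCAA last. For the CHR only TTTGAA was searched, so any other form of it was missed. Some genes have more than 1 promoter in these counts. Counted once per gene, TTTGAA was in 42.1% of the 38 genes, CCAAT in 68.4% and the E2F-type letters in 28.9%. Over 27025 genes of the collection the shares were 20.2%, 41.1% and 9.2%. All motifs were searched on both strands, the last E2F form overlaps a CCAAT box when a T follows them, and a match of letters is a description and not a bound site. The first 3 promoters below are examples from genes that fell in H and rose in HL. Birc5, Cenpp, Mad2l1 and Nuf2 also fell and rose, and their promoters held none of these motifs. The last 2 belong to the genes with no adjusted p under 0.05 in H against NC. Capitals mark matches, 5′ to 3′ on the strand of the gene, where ATTGG is CCAAT on the other strand.
Cenpa, chr5:30666636-30666935, plus strand: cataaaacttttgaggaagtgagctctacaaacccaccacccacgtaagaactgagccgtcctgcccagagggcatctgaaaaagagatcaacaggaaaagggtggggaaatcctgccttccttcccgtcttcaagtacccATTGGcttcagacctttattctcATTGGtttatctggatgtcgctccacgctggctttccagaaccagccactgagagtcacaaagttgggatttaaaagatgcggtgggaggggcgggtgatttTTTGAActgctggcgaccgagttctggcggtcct
Cdca8, chr4:124936868-124937167, minus strand: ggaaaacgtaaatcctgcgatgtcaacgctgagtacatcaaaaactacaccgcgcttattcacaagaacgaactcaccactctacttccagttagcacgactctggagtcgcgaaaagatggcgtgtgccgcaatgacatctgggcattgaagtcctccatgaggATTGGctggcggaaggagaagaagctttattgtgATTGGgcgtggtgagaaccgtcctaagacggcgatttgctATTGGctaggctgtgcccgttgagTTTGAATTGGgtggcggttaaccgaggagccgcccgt
Bub1, chr2:127831810-127832109, minus strand: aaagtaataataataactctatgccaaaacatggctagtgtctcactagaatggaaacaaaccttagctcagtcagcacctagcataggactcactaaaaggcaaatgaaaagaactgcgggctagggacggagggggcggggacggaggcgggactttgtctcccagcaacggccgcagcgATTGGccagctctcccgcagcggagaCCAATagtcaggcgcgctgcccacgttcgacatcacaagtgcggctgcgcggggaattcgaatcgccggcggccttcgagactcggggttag
Zwint, chr10:72654596-72654895, plus strand: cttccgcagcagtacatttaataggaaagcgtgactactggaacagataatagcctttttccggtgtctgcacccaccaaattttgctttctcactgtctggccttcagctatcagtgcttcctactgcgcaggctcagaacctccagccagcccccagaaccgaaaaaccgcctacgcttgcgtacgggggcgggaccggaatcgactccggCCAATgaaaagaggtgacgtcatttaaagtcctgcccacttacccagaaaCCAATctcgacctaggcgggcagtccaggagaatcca
Zw10, chr9:49055331-49055630, plus strand: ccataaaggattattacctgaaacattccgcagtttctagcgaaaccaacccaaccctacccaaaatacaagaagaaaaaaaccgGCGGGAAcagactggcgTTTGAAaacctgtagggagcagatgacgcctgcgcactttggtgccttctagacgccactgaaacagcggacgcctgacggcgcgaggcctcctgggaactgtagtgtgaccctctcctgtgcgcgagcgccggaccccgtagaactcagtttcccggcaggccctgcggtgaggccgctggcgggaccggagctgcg
The Cenpa promoter held 2 CCAAT boxes before the start, from base -109 and base -86, and a TTTGAA after it. Cdca8 had 4 CCAAT boxes, 1 of which shares a base with its TTTGAA. Bub1 and Zwint had 2 CCAAT boxes each and no TTTGAA in this window. Zw10 had GCGGGAA and TTTGAA and no CCAAT. The 16 genes with a TTTGAA had a median log2 fold change of H over NC of -1.60 and the 22 without one -1.90, with ranges that overlapped (-2.36 to 0.24 and -2.67 to -0.06). Over the same genes the medians of HL over H were 1.13 with a TTTGAA and 1.08 without. For CCAAT, the medians of H over NC were -1.76 in the 26 genes with it and -1.74 in the 12 without, and those of HL over H were 1.13 with it and 0.87 without. For the E2F-type letters, the medians of H over NC were -1.53 in the 11 genes with them and -1.91 in the 27 without, and those of HL over H were 0.80 with them and 1.23 without. The ranges overlapped in each of these splits, and no difference between them was tested.

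The CENP-A nucleosome and the inner kinetochore were represented by 14 genes. Of these, 11 fell in H against NC, 7 rose in HL against H and 2 were lower in HL than in NC. The shares of all tested genes were 5.75%, 3.55% and 2.41%. The median log2 fold changes of the 14 genes were -1.58, 1.04 and -0.63. Cenpa encodes the CENP-A histone itself and was the most abundant gene of this group. It had 96.3, 92.0 and 101 FPKM in the HL libraries, 37.3, 41.3 and 41.6 in H and 132, 122.6 and 117 in NC. The groups did not overlap, and each H library lay below every HL and NC library. The log2 fold change of Cenpa was -1.63 in H against NC (SE 0.07, adjusted p = 1.95e-07) and 1.27 in HL against H (SE 0.07, adjusted p = 2.68e-06). HL stayed at 77.8% of the NC mean, a log2 difference of -0.36 that is under the fold threshold.

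Cenph, Cenpi, Cenpk and Cenpm encode the subunits of 1 complex of the inner kinetochore, and all 4 fell in H. Cenpk had 10.9, 12.3 and 11.3 FPKM in HL, 2.52, 6.27 and 6.20 in H and 28.3, 32.9 and 29.1 in NC. The first H library lay below the other two, and by the depth estimate its value rests on about 67 reads, the lowest number of any of the 44 genes. Cenpk fell in H against NC with a log2 fold change of -2.67 (SE 0.29, adjusted p = 4.64e-05) and remained lower in HL than in NC at -1.38 (SE 0.29, adjusted p = 0.00388). Its change of 1.29 in HL against H (SE 0.29, adjusted p = 0.0056) fell to 0.87 without H replicate 1. Cenpm had 14.1, 12.8 and 11.6 FPKM in HL, 5.07, 6.84 and 8.12 in H and 27.0, 27.5 and 28.3 in NC. The 3 groups were apart, and the HL libraries stood nearer to H than to NC. Cenpm was lower in HL than in NC (log2 fold change -1.10, SE 0.15, adjusted p = 0.000373), and its difference of 0.95 from H lay under the fold threshold. Cenph averaged 14.7 ± 0.830 FPKM in HL, 6.69 ± 0.394 in H and 27.6 ± 1.46 in NC, and Cenpi averaged 13.3 ± 1.71 in HL, 4.72 ± 0.697 in H and 20.6 ± 1.07 in NC (SD, n = 3 each).

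Cenpo, Cenpp, Cenpq and Cenpu belong to a further complex of this layer, of which the human CENP-U subunit binds the kinase PLK1. Cenpp had 13.4, 11.7 and 12.1 FPKM in HL, 3.84, 4.25 and 4.84 in H and 15.3, 17.2 and 16.8 in NC. Its HL libraries reached 75.5% of the NC mean. Cenpp rose in HL against H by 1.51 on the log2 scale (SE 0.10, adjusted p = 7.49e-06). Cenpu had 8.61, 9.91 and 13.4 FPKM in HL, 3.83, 4.96 and 4.63 in H and 21.2, 20.97 and 18.3 in NC. The third HL library was the highest of its group and still below every NC library. Cenpu fell in H against NC (log2 fold change -2.15, SE 0.16, adjusted p = 4.55e-06), rose in HL against H (1.22, SE 0.16, adjusted p = 0.0003) and had a difference of -0.93 between HL and NC that passed the fold threshold only without HL replicate 3 (-1.11) or without NC replicate 3 (-1.002). Cenpq fell in H against NC (-1.34, SE 0.07, adjusted p = 8.62e-07), and Cenpo, at -0.96, was not called except without NC replicate 3 (-1.05).

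Of the genes that bind the CENP-A nucleosome or carry histone folds, Cenpn averaged 12.7 ± 0.314 FPKM in HL, 5.78 ± 0.666 in H and 16.8 ± 0.691 in NC, and it both fell in H and rose in HL. Cenpl, the partner of Cenpn, fell in H (log2 fold change -1.29, SE 0.13, adjusted p = 2.94e-05), but its HL and H libraries overlapped, with 7.42 ± 0.461 FPKM in HL and 5.92 ± 1.16 in H. Cenpc1, which encodes CENP-C and joins the nucleosome to the outer layer, had log2 differences of -0.88 in H against NC and 0.42 in HL against H, both under the fold threshold. Cenpt encodes a histone-fold subunit that recruits the NDC80 complex and was not called in any comparison. It averaged 20.3 ± 0.870 FPKM in HL, 12.4 ± 0.836 in H and 18.9 ± 0.332 in NC, and it was the only one of the 44 genes with every HL library above every NC library (29.5% of all tested genes). Cenpw, its histone-fold partner, fell in H by 1.05 on the log2 scale (SE 0.10, adjusted p = 2.64e-05), a change under the fold threshold with a pseudocount of 1 (-0.90) or after rescaling to TPM (-0.87). Exons of Cenpo, Cenpp, Cenpk, Cenpu and Cenpq overlap those of genes on the opposite strand, by up to 921 bases for Cenpo with Adcy3 and 912 for Cenpu with Primpol, and since the strand of the libraries is not stated in the sources used here, such reads cannot be told apart.

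The KMN network consists of the NDC80 complex, which binds microtubules, the MIS12 complex, which connects it to the inner layer, and KNL1, the platform for checkpoint proteins. Of its 10 genes, 7 fell in H against NC, 5 rose in HL against H and 2 were lower in HL than in NC. Over all tested genes the shares were 5.75%, 3.55% and 2.41%. The medians of the 10 genes were -1.72, 0.92 and -0.81. All 4 NDC80 complex genes, Ndc80, Nuf2, Spc24 and Spc25, fell in H and rose in HL. Ndc80 had 28.6, 30.7 and 27.2 FPKM in HL, 8.04, 10.1 and 10.1 in H and 35.8, 35.7 and 37.5 in NC. Its HL libraries stood close under the NC libraries, at 79.4% of their mean. Ndc80 had the largest rise of the network in HL against H, 1.61 on the log2 scale (SE 0.09, adjusted p = 4.13e-06). Spc24 had 21.9, 18.5 and 21.8 FPKM in HL, 5.03, 9.42 and 8.36 in H and 53.1, 45.6 and 43.9 in NC. The H mean was 16.0% of the NC mean, the lowest such share of the 44 genes. Spc24 fell in H against NC with a log2 fold change of -2.67 (SE 0.20, adjusted p = 4.83e-06) and stayed lower in HL than in NC at -1.19 (SE 0.20, adjusted p = 0.00118).

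Nuf2, the partner of Ndc80 at the microtubule, averaged 35.3 ± 1.40 FPKM in HL, 13.6 ± 3.01 in H and 68.1 ± 0.624 in NC. Spc25, the partner of Spc24, averaged 41.1 ± 1.19 FPKM in HL, 19.0 ± 2.85 in H and 72.2 ± 0.160 in NC, and its rise of 1.12 in HL against H came to 0.99 without H replicate 1. So the 4 subunits did not stand at 1 common share of the control in HL, where Ndc80 was at 79.4% of NC, Nuf2 at 51.9%, Spc24 at 43.6% and Spc25 at 57.0%. Knl1 had 6.06, 6.43 and 7.12 FPKM in HL, 1.68, 2.48 and 3.20 in H and 13.0, 11.8 and 13.0 in NC. All 3 groups were apart, and 1.68 FPKM was the lowest value of any of the 44 genes in any library. Knl1 fell in H against NC (log2 fold change -2.36, SE 0.19, adjusted p = 7.66e-06) and rose in HL against H (1.42, SE 0.19, adjusted p = 0.000347).

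Zwint encodes a partner of KNL1 and helps to bring the RZZ complex to the kinetochore. It had 167, 174 and 164 FPKM in HL, 166, 147 and 156 in H and 167, 159.8 and 161 in NC. The libraries of the 3 groups overlapped, although its partner Knl1 fell in H. The log2 difference of Zwint was -0.06 in H against NC (SE 0.05, adjusted p = 0.395), 0.11 in HL against H (SE 0.05, adjusted p = 0.137) and 0.05 in HL against NC (SE 0.05, adjusted p = 0.479), all on the FPKM scale. After rescaling to TPM, these differences were 0.14 (adjusted p = 0.0449), 0.0099 (adjusted p = 0.893) and 0.15 (adjusted p = 0.0426), so that the sign of the first turned. Zwint took 22.3 to 26.4% of the summed FPKM of the 44 genes in H, against 13.9 to 14.6% in HL and 9.28 to 9.56% in NC.

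The MIS12 complex was represented by 4 genes, of which Pmf1 and Nsl1 fell in H. Pmf1 averaged 32.9 ± 1.35 FPKM in HL, 20.1 ± 0.725 in H and 57.6 ± 2.47 in NC and fell in H (log2 fold change -1.52, SE 0.06, adjusted p = 1.59e-07). Nsl1 had 4.58, 3.34 and 2.61 FPKM in HL, 2.39, 2.62 and 3.06 in H and 7.81, 6.14 and 7.75 in NC. The HL and H libraries overlapped and both lay below every NC library. Nsl1 fell in H against NC (log2 fold change -1.39, SE 0.20, adjusted p = 0.000254) and was lower in HL than in NC (-1.05, SE 0.20, adjusted p = 0.00218), although the second change lay at -0.86 to -0.996 under 5 of the 17 alternatives in which this gene was tested. Dsn1 and Mis12 itself, at -0.97 and -0.77 in H against NC, did not pass the fold threshold. Exons of Mis12 overlap those of Derl2 on the opposite strand by 231 bases.

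The SKA complex binds microtubules beside NDC80 and holds on to their shrinking ends. Its 3 genes all fell in H, against 5.75% of all tested genes, and 1 was lower in HL than in NC, against 2.41%. In HL against H 0 passed the fold threshold, while all 3 were higher at an unadjusted p under 0.05. They were also higher at an adjusted p under 0.05, as were 26.7% of all tested genes. The medians were -1.59 in H against NC, 0.80 in HL against H and -0.91 in HL against NC. Ska1 had 4.76, 5.25 and 4.66 FPKM in HL, 2.15, 3.32 and 2.71 in H and 13.4, 12.3 and 14.1 in NC. The HL libraries were above the H libraries and far below the NC libraries, at 36.9% of the NC mean, the lowest such share of the 44 genes. Ska1 fell in H against NC (log2 fold change -2.26, SE 0.14, adjusted p = 1.78e-06) and was lower in HL than in NC (-1.42, SE 0.14, adjusted p = 7.81e-05). Ska2 had 12.4, 12.9 and 13.5 FPKM in HL, 7.10, 7.06 and 7.99 in H and 21.6, 22.4 and 23.3 in NC. For this gene too the groups were apart, with HL between H and NC. The log2 difference between HL and H was 0.84 for Ska1, 0.80 for Ska2 and 0.67 for Ska3, with adjusted p of 0.00138, 3.83e-05 and 9.34e-05.

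The corona is the outermost layer of unattached kinetochores, and its RZZ complex, made of the products of Kntc1, Zwilch and Zw10, recruits the dynein motor and the checkpoint protein MAD1. Of the 5 genes of corona and RZZ complex, 4 fell in H and 3 rose in HL against H, where 5.75% and 3.55% of all tested genes did. None was called in HL against NC (0 genes), although 4 were lower at an unadjusted p under 0.05. Without the fold threshold, 2 were lower in HL than in NC at an adjusted p under 0.05, against 27.2% of all tested genes. The medians were -1.89 in H against NC, 1.63 in HL against H and -0.58 in HL against NC. Zwilch had 24.6, 28.2 and 27.7 FPKM in HL, 4.36, 8.54 and 9.89 in H and 41.8, 45.1 and 38.3 in NC. Its HL libraries were all above 24 FPKM and its H libraries all under 10. Zwilch fell in H against NC with a log2 fold change of -2.52 (SE 0.25, adjusted p = 2.53e-05), and its rise of 1.89 in HL against H (SE 0.25, adjusted p = 0.000299) was the largest of the 44 genes, although without H replicate 1 it was 1.53, below that of Bub1 at 1.57. Cenpf, a long coiled-coil protein of the corona, had 13.2, 12.4 and 13.8 FPKM in HL, 3.0015, 4.90 and 4.59 in H and 17.2, 16.1 and 19.98 in NC. The H libraries were again the lowest, and the HL libraries lay below all NC libraries. Cenpf fell in H (log2 fold change -2.09, SE 0.17, adjusted p = 7e-06) and rose in HL (1.66, SE 0.17, adjusted p = 6.61e-05). Cenpe, the kinesin motor that moves chromosomes along microtubules, averaged 23.5 ± 2.41 FPKM in HL, 7.65 ± 1.81 in H and 28.1 ± 1.19 in NC, so that HL reached 83.6% of the NC mean.

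Zw10 went another way than its complex. This subunit also works outside mitosis, in membrane traffic between the endoplasmic reticulum and the Golgi. It had 14.6, 14.4 and 13.8 FPKM in HL, 32.1, 21.2 and 26.7 in H and 22.5, 22.7 and 21.5 in NC. The H libraries spread around the NC libraries, while all HL libraries lay below all others. The log2 difference of H over NC was 0.24 (SE 0.13, adjusted p = 0.121), the only positive one of the 44 genes. After rescaling to TPM, a scale on which the median of all tested genes was 0.15 in this comparison, it was 0.44 with an adjusted p of 0.0126, and that of Zwint was positive as well. The difference of HL over H was -0.88 (SE 0.13, adjusted p = 0.000468), which passed the fold threshold only without H replicate 2 (-1.03). Kntc1, the third subunit, fell in H by 1.44 on the log2 scale (SE 0.13, adjusted p = 1.63e-05) and had a difference of 0.87 between HL and H.

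**Figure D2:**
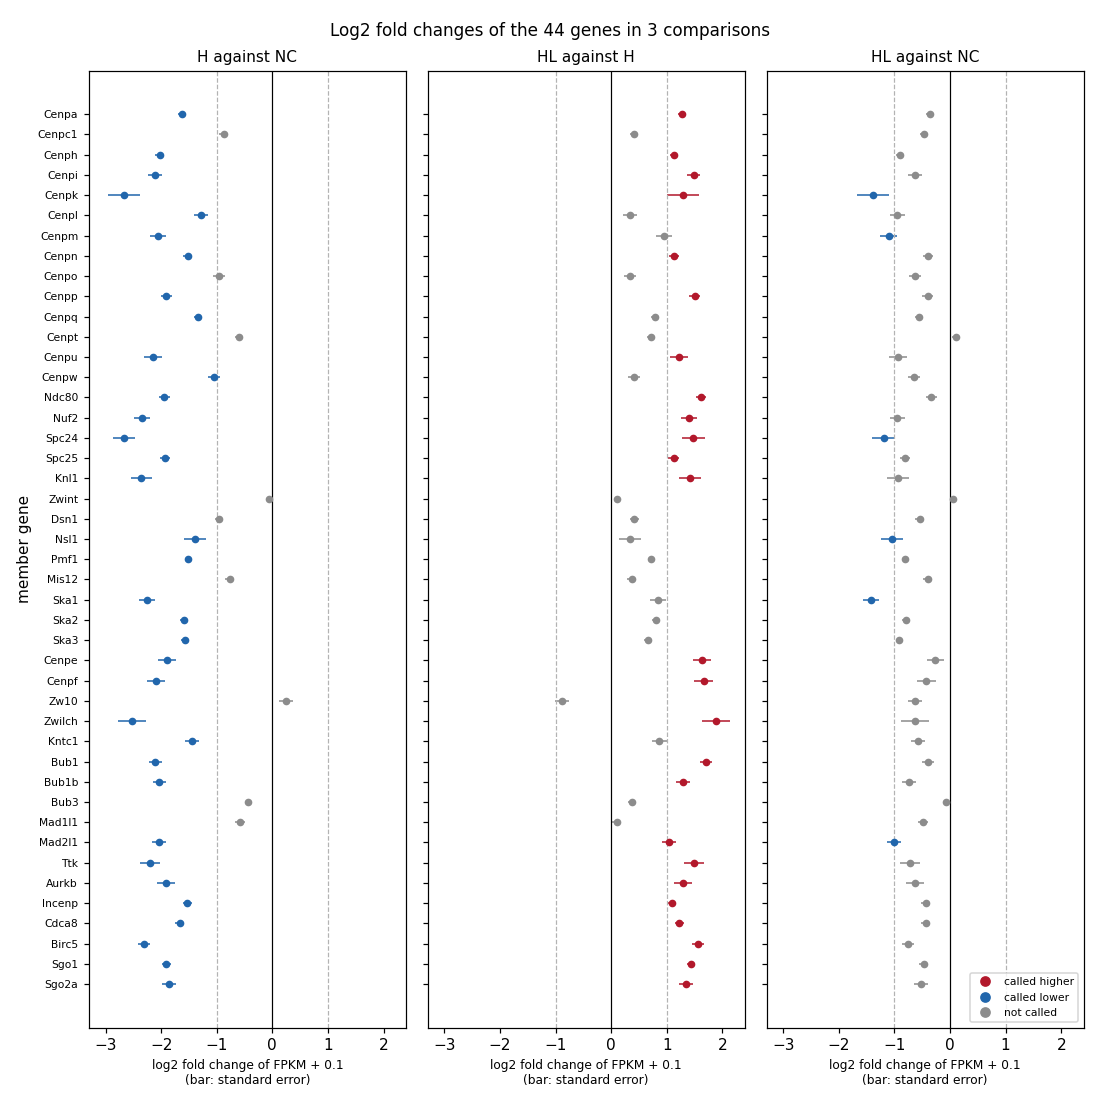
Log2 fold change of FPKM + 0.1 for each of the 44 genes in H against NC (left), HL against H (middle) and HL against NC (right), with bars for the standard error and dashed lines at the fold threshold. Blue points (called lower) number 35 in the left panel and 6 in the right panel, red points (called higher) number 25 in the middle panel, and Zw10 alone lies right of 0 in the left panel and left of 0 in the middle panel.

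The spindle checkpoint holds back the anaphase-promoting complex until every kinetochore is attached. Of its 6 genes, 4 fell in H, 4 rose in HL against H and 1 was lower in HL than in NC. Of all tested genes, 5.75%, 3.55% and 2.41% did so. The medians of the 6 genes were -2.04, 1.16 and -0.60. Bub1, Bub1b, Mad2l1 and Ttk made up the 4 that fell and the 4 that rose. Bub1 and Bub1b were among the central genes that the study chose from these libraries. Their direction here is not independent evidence, and neither is that of the other genes, which were measured in the same libraries. Bub1, a kinase that marks centromeric chromatin and recruits other checkpoint proteins, had 32.7, 31.1 and 30.2 FPKM in HL, 7.78, 10.2 and 10.8 in H and 39.9, 41.0 and 42.5 in NC. The HL libraries were closer to NC than to H. Bub1 fell in H against NC (log2 fold change -2.10, SE 0.11, adjusted p = 6.22e-07) and had the largest rise of the 6 genes in HL against H (1.71, SE 0.11, adjusted p = 6.68e-06). Ttk, the MPS1 kinase that starts the checkpoint signal, had 18.1, 16.7 and 17.5 FPKM in HL, 4.34, 8.06 and 6.53 in H and 27.6, 28.5 and 29.9 in NC. The groups were apart, with the widest relative spread in H. Ttk fell in H against NC (log2 fold change -2.21, SE 0.18, adjusted p = 7.71e-06) and rose in HL against H (1.49, SE 0.18, adjusted p = 0.000183).

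Mad2l1 encodes MAD2, which is folded into the inhibitor of the anaphase-promoting complex. It had 38.6, 38.6 and 37.5 FPKM in HL, 14.5, 21.6 and 20.6 in H and 78.5, 75.9 and 76.8 in NC. The 3 groups were apart, and HL was at 49.7% of the NC mean, where Bub1 was at 76.1%. Mad2l1 fell in H against NC (log2 fold change -2.04, SE 0.13, adjusted p = 1.6e-06). Its log2 fold changes of 1.03 in HL against H (SE 0.13, adjusted p = 0.000205) and -1.01 in HL against NC (SE 0.13, adjusted p = 0.000254) lay close to the fold threshold and lost the call under 3 and 5 of 18 alternatives. Bub1b, which encodes BUBR1, averaged 28.4 ± 0.803 FPKM in HL, 11.7 ± 2.48 in H and 47.3 ± 0.705 in NC.

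Bub3 and Mad1l1, the binding partners of BUB1 and MAD2, were not called in any comparison. Bub3 had 59.0, 61.0 and 60.1 FPKM in HL, 50.9, 41.9 and 47.1 in H and 61.5, 64.4 and 62.5 in NC. Its H libraries were below the rest, but by less than the fold threshold (log2 difference -0.43 in H against NC, SE 0.07, adjusted p = 0.000535). Mad1l1 averaged 14.99 ± 0.284 FPKM in HL, 14.1 ± 1.83 in H and 20.96 ± 0.447 in NC (SD, n = 3 each). Its HL and H libraries overlapped, and both lay below every NC library. So within 1 pathway Bub1 stood at 23.3% of the NC mean in H, Mad2l1 at 24.5%, Mad1l1 at 67.2% and Bub3 at 74.3%.

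The chromosomal passenger complex consists of the kinase AURKB and 3 partners that bring it to the centromere, encoded by Incenp, Cdca8 (borealin) and Birc5 (survivin). All 4 genes fell in H and all 4 rose in HL against H, where 5.75% and 3.55% of all tested genes did. None was called in HL against NC (0 genes, with all 4 lower at an unadjusted p under 0.05). All 4 were also lower in HL than in NC at an adjusted p under 0.05, as were 27.2% of all tested genes. The medians of the 4 genes were -1.79, 1.26 and -0.53. Birc5 had 103, 114 and 113 FPKM in HL, 30.8, 38.3 and 43.98 in H and 186, 185 and 186 in NC. It was the most abundant of the 44 genes in NC, and each of its HL libraries lay above every H library. Birc5 fell in H against NC (log2 fold change -2.31, SE 0.11, adjusted p = 3.86e-07) and rose in HL against H (1.56, SE 0.11, adjusted p = 1.01e-05). Aurkb had 36.0, 30.4 and 33.7 FPKM in HL, 10.2, 13.9 and 17.5 in H and 48.8, 53.5 and 52.0 in NC. The order of the groups was the same as for Birc5, with a wider relative spread of the H libraries. Aurkb was a further central gene that the study chose from these libraries. It fell in H against NC (log2 fold change -1.92, SE 0.16, adjusted p = 1e-05) and rose in HL against H (1.29, SE 0.16, adjusted p = 0.000233). Incenp averaged 38.3 ± 3.32 FPKM in HL, 17.9 ± 0.687 in H and 51.9 ± 3.38 in NC, and Cdca8 averaged 36.5 ± 1.34 in HL, 15.6 ± 1.71 in H and 49.5 ± 0.748 in NC. The rise of Incenp in HL against H, 1.09 on the log2 scale, came to 0.99 after rescaling to TPM.

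Shugoshins guard the cohesion of sister centromeres until anaphase. Both Sgo1 and Sgo2a fell in H against NC and rose in HL against H, where 5.75% and 3.55% of all tested genes did. Neither was called in HL against NC (0 genes, with both lower at an unadjusted p under 0.05). Both were also lower in HL than in NC at an adjusted p under 0.05, as were 27.2% of all tested genes. Sgo1 had 11.9, 13.1 and 13.4 FPKM in HL, 4.62, 4.80 and 4.56 in H and 16.9, 17.3 and 19.2 in NC. The H libraries of this gene agreed closely, with an SD of 0.128 FPKM. Sgo1 and Bub1 were also on the list of top genes that the study drew from these libraries for HL against H. Sgo1 fell in H against NC (log2 fold change -1.91, SE 0.08, adjusted p = 1.95e-07). Sgo2a had 11.5, 11.1 and 10.6 FPKM in HL, 3.44, 4.70 and 4.95 in H and 16.1, 15.3 and 16.5 in NC. Its groups did not overlap, but its exons overlap those of Kctd18 on the opposite strand by 2358 bases, and Kctd18 averaged 13.2 FPKM over the 9 libraries. Sgo2a fell in H against NC (log2 fold change -1.86, SE 0.13, adjusted p = 2.42e-06) and rose in HL against H (1.34, SE 0.13, adjusted p = 4.49e-05).

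**Figure D3:**
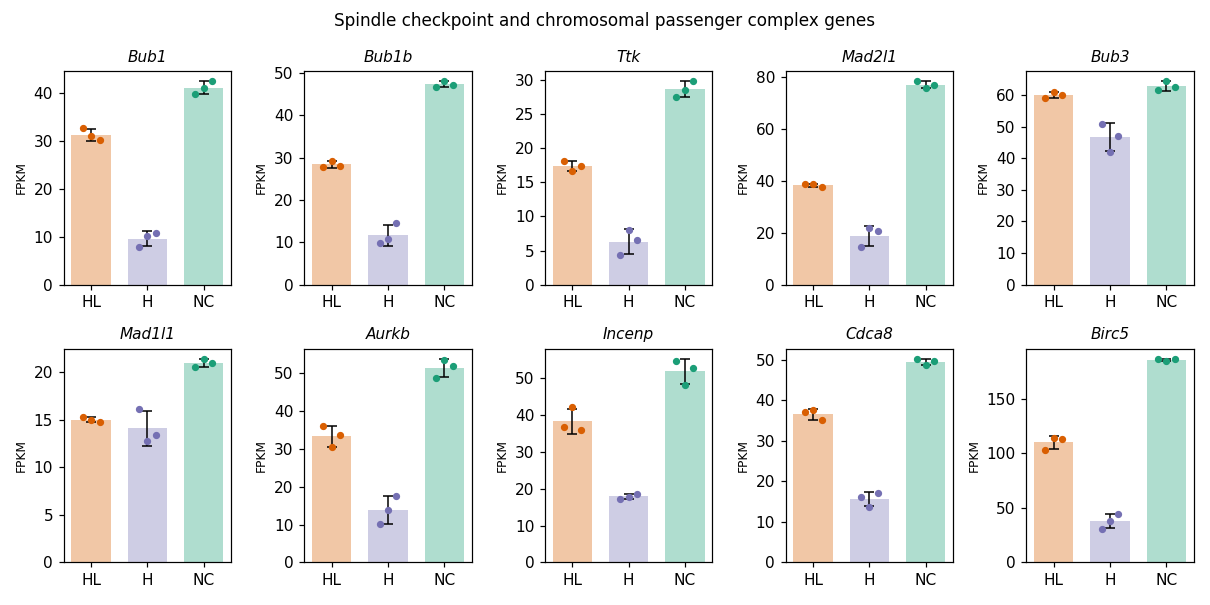
FPKM of the 6 spindle checkpoint genes and the 4 genes of the chromosomal passenger complex in HL, H and NC, with 1 point per library, bars for the mean and error bars for the SD of 3 libraries. Bub1, Bub1b, Ttk, Mad2l1 and all 4 passenger genes have a low bar in H and an HL bar between H and NC, whereas Bub3 lies between 41.9 and 64.4 FPKM in all 9 libraries.

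The H libraries were more spread than the others. The median SD of the 44 genes on the log2 scale was 0.08 in HL, 0.19 in H and 0.06 in NC, and over all tested genes it was 0.09 in HL, 0.17 in H and 0.07 in NC. The first H library had the lowest H value in 30 of the 44 genes, the second in 13 and the third in 1. Relative to the mean of the 3 H libraries, the median deviation was -0.16 in the first, 0.04 in the second and 0.11 in the third on the log2 scale. The deviation of the first library was largest for Cenpk, at -0.85. Without H replicate 1, the median log2 fold change of H over NC was -1.70, and 22 genes were called higher in HL against H.

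**Figure D4:**
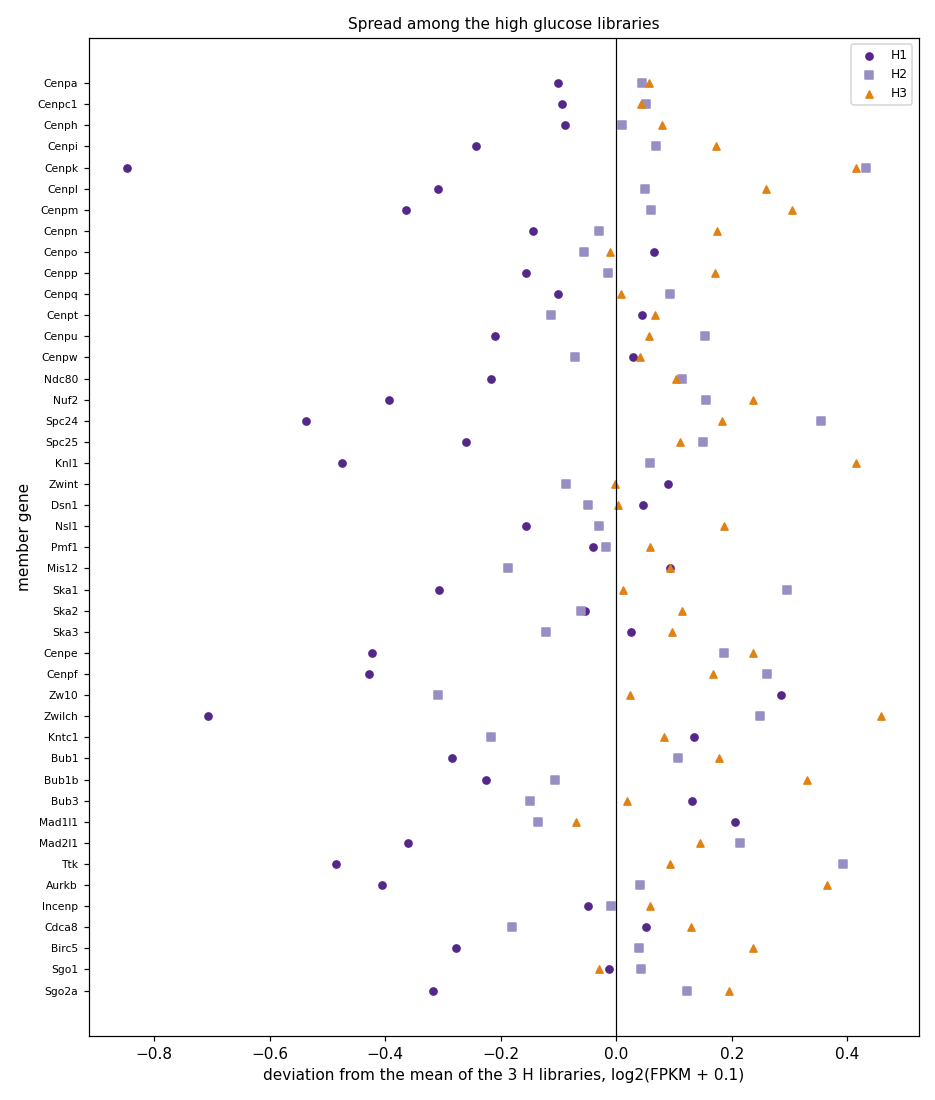
Deviation of each H library from the mean of the 3 H libraries, in log2(FPKM + 0.1), for each of the 44 genes, with circles for the first, squares for the second and triangles for the third library. The circles lie left of 0 for most genes, down to -0.85 for Cenpk, and right of 0 for Zw10 at 0.28.

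Other genes with roles at the centromere, at the kinetochore or in the cell cycle were counted for comparison, and not all of them belong to 1 phase. Of all tested genes, 5.75% were lower in H than in NC, 3.55% higher in HL than in H and 2.41% lower in HL than in NC. Of 22 tested spindle assembly genes, 20 were lower in H than in NC (median log2 fold change -1.67) and 17 were higher in HL than in H (median 1.18), and Kif15, a mitotic kinesin, had the largest change, with 11.1 ± 0.584 FPKM in HL, 3.55 ± 0.883 in H and 25.1 ± 2.07 in NC. Of 14 tested mitotic entry genes, 11 were lower in H (median -1.69) and 9 were higher in HL than in H (median 1.198). Of 21 tested other kinetochore and checkpoint regulators, 11 were lower in H (median -1.03), 5 were higher in HL than in H (median 0.57) and 1, Trip13, which disassembles the checkpoint inhibitor, was lower in HL than in NC. Without the fold threshold, 14 of the 21 were lower and 3 higher in H than in NC, where 4513 and 3711 of all 13674 tested genes were. Of 13 tested other centromere genes, 7 were lower in H (median -1.05) and 3 were higher in HL than in H (median 0.38), among them Oip5, which helps to load CENP-A, with 8.80 ± 0.126 FPKM in HL, 4.18 ± 0.823 in H and 15.3 ± 0.912 in NC.

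The HL group was also set against NC for genes of S phase, the phase of DNA replication. Of 28 tested S phase genes, 23 were lower in H than in NC, 5 were higher in HL than in H and 15 were lower in HL than in NC (medians -1.75, 0.74 and -1.06), beside 35, 25 and 6 of the 44 genes. The shares of all tested genes in these comparisons were 5.75%, 3.55% and 2.41%. The difference between the lists was not tested. Among 24 tested regulators of these genes (MuvB subunits, FOXM1, E2F and related factors), 7 were lower and 2, Tfdp2 and Cdkn1a, were higher in H than in NC, where 5.75% and 10.3% of all tested genes were. In HL against H, 2 of the 24 were higher and 1, Tfdp2, was lower, where 3.55% and 5.83% of all tested genes were. In HL against NC 1 was higher and 2 were lower, where 6.30% and 2.41% of all tested genes were. Tfdp2, which encodes a dimerisation partner of E2F factors, had the largest rise of the list in H, with 12.04 ± 0.672 FPKM in HL, 45.8 ± 10.3 in H and 11.6 ± 1.06 in NC. Its log2 fold change was 1.95 in H against NC (SE 0.14, adjusted p = 4.34e-06) and -1.90 in HL against H (SE 0.14, adjusted p = 1.51e-05). Mybl2 had the largest fall of the list in H (log2 fold change -2.14), with 7.44 ± 0.831 FPKM in HL, 3.73 ± 0.157 in H and 16.9 ± 1.67 in NC. Foxm1, a transcription factor of late cell cycle genes, had 20.8 ± 0.0496 FPKM in HL, 11.3 ± 0.575 in H and 37.1 ± 0.541 in NC. Of the MuvB subunits, Lin9 was lower in H than in NC, while Lin37, Lin52 and Rbbp4 were not called in any comparison. Cdkn1a, which encodes the cyclin-dependent kinase inhibitor p21, had 295 ± 6.16 FPKM in HL, 304 ± 18.5 in H and 129 ± 1.75 in NC. It was higher than in NC both in H (log2 fold change 1.24, SE 0.05, adjusted p = 1.95e-07) and in HL (1.197, SE 0.05, adjusted p = 1.49e-06), while the difference of HL over H was -0.04 (SE 0.05, adjusted p = 0.543).

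**Figure D5:**
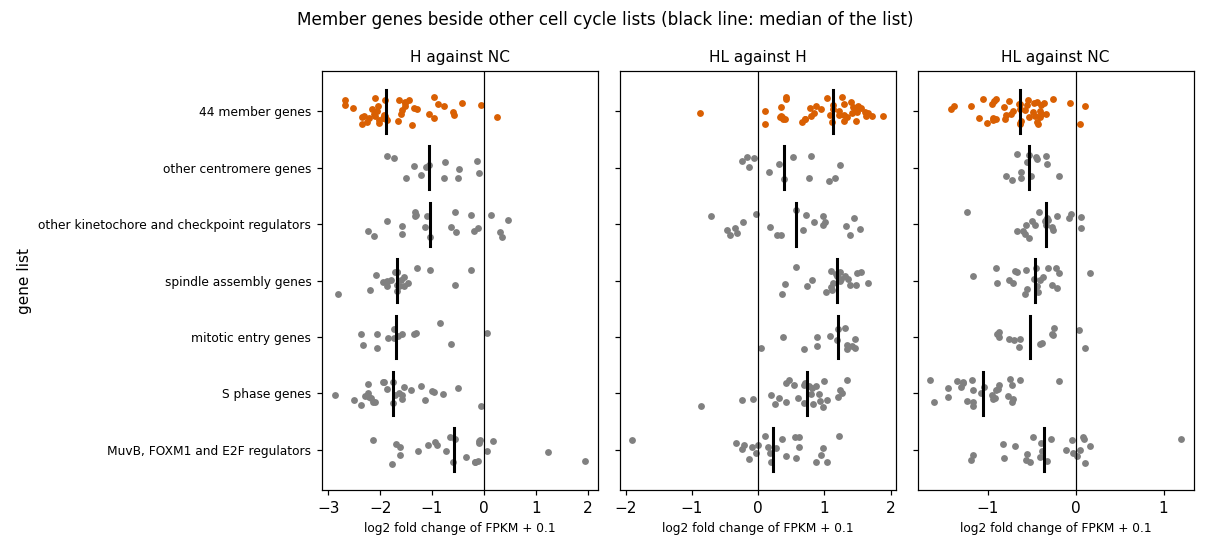
Log2 fold changes of FPKM + 0.1 for the 44 genes (orange) and for 6 other cell cycle lists (grey), with 1 point per tested gene and a black line at the median of each list, in H against NC (left), HL against H (middle) and HL against NC (right). In HL against NC the line of the S phase genes lies at -1.06 and that of the 44 genes at -0.63.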

How the data were processed

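RNA of 9 libraries of C2C12 cells was sequenced, 3 each of the HL, H and NC groups. According to the methods and the submitters' processing notes, the authors trimmed reads with fastp, aligned them with HISAT2 (2.1.0), quantified them with StringTie (1.3.3b) and compared groups with DESeq2. The values used here are the deposited FPKM, 1 per gene and library, which are not counts. The notes name the mouse build mm39, the methods a human reference and the deposited values another quantifier, so no gene coordinates were taken from them. The methods speak of independent biological repeats, but no label ties a library to a culture of its own, so each p reflects the spread of these libraries alone, which may be technical.

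Values were transformed to log2(FPKM + 0.1), which understates the change of genes with low values, and tested with limma (3.58.1, statmod 1.5.0, R 4.3.3) with trend and robust options in a single fit over the 9 libraries, which left 6 residual degrees of freedom. A gene was tested if 3 or more libraries had at least 1 FPKM, which 13674 genes met, all 44 described among them. Benjamini-Hochberg adjustment ran over all tested genes within each comparison. The study ran DESeq2 on counts, which FPKM do not allow, but its thresholds (adjusted p under 0.05, absolute log2 fold change over 1) were kept. The fit was tested on simulated data. The 44 genes and the gene lists were chosen with earlier results of these data known. Values of every library are given for the 2 genes of each role with the largest change in H against NC, the 1 with the largest change in HL against H, the 1 with the highest mean, each gene called in HL against NC and each gene that went against its role.

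Promoters came from RefSeq (GRCm38.p6), and lengths and exon overlaps from the GENCODE annotation, of which no coordinates are given. Depth was estimated from genes with 1 annotated transcript longer than 1000 bases as the most frequent value of 1 read. Only depths in a preset window were allowed, which bounds the estimate. Numbers of reads behind a value were estimated from this depth and the longest coding transcript of the gene. Low values rest on few reads, and no counting interval could be given. Each result was recomputed with another pseudocount (1 or 0.01), no filter, a minimum mean FPKM of 5, TPM in place of FPKM, library medians set equal, no robust option, a fit of the 2 compared groups, a replicate block, no fold threshold and each library left out. Python 3.11.15, pandas 2.3.3 and matplotlib 3.10.9 made the tables and plots. No set test was run, and the splicing events, networks and protein assays of the study were not repeated.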

Additional observations from a re-analysis of the deposited data

How the results depend on the processing

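No result changed its direction under the alternatives run, apart from the signs of 2 small differences after rescaling to TPM, that of Zwint in H against NC (0.14) and that of Bub3 in HL against NC (0.03). The median log2 fold change of H over NC was -1.69 with a pseudocount of 1, -1.69 after rescaling to TPM and -1.70 without H replicate 1, and over the left-out libraries it ranged over -1.93 to -1.70. The median of HL over NC was -0.59 with a pseudocount of 1, -0.54 after rescaling to TPM and -0.59 without NC replicate 2 (range over left-out libraries -0.65 to -0.59). Rescaling to TPM moved the median of all tested genes from -0.04 to 0.15 in H against NC, so the genes fell relative to it on either scale. With no fold threshold, 39 genes were higher and 1 (Zw10) was lower in HL than in H, and 38 were lower in HL than in NC. Leaving out 1 library gave 35 to 36 genes lower in H than in NC, 22 to 26 higher and 0 to 1 lower in HL than in H (Zw10 without H replicate 2), and 4 to 6 lower in HL than in NC. Of the genes called, 33 of 35, 21 of 25 and 4 of 6 were tested and kept the call under all 18 alternatives with a fold threshold, and 1 gene, Nsl1, was not tested with a minimum mean FPKM of 5.

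Same-numbered libraries did not deviate together over all tested genes (correlations -0.037 to 0.091). These correlations cannot show whether such libraries share a culture or batch that affects part of the genes. With the replicate block the counts stayed at 35, 25 and 6. The cause of the changes above was not tested. Depth is an estimate, and the lowest estimated number of reads behind a value was about 67, for Cenpk in H replicate 1.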
